A study of Zea mays with 32 samples.

Results

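The very tip of the maize primary root was compared with the tissue just behind it, using 8 of the 32 libraries of a series that followed the root from its tip backwards. Slice 1, the tip, has 2 libraries and slices 2 to 4 have 6. The members were taken from the slice and root that each label gives. All libraries are from wild type Zea mays of the inbred line B73 at 7 days after germination, grown on germination paper without further treatment named in the labels. Both roots, A and B, were pinned side by side and sectioned by hand into 16 slices, so each slice has 1 library per root (n = 2). The thickness of a slice is not given in the sources used here. Since all libraries come from 2 roots cut together, p-values of the slice comparisons measure only the spread between these roots.

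The tip of a grass root carries the root cap, which protects the meristem, senses gravity through starch-filled cells and sheds border cells in mucilage. Behind it lies the quiescent centre with its surrounding stem cells, and then the dividing cells of the meristem. New cap cells are pushed outwards and are lost, while cells on the other side of the meristem elongate and mature. A slice mixes all cell types present at its position. Fewer cells of a type and less RNA per cell therefore cannot be told apart. The count table gives gene identifiers without names, and 0 of its 39510 identifiers matched the 49888 genes of the reference table. Cap, meristem or vascular markers could thus not be looked up, and the genes are described by their profiles, with 2 identifiers in each direction.

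Slice 1 held fewer genes and a more concentrated set of transcripts than slices 2 to 4. At a common depth of 1000000 counts, 13740 genes were expected in slice 1 of root A and 17487 in slice 1 of root B, against 18475 to 19746 in the 6 libraries behind. The 100 genes with the most counts took 38.4% of the counts in slice 1 of root A and 30.8% in root B, against at most 27.2% in slices 2 to 4. Both slice 1 libraries lay outside the range of the 6 others on both measures. Depth was similar, with 1052117 and 1139921 counts in slice 1 and 1008082 to 1573593 in slices 2 to 4. The roots also differed more in slice 1: the median gene tested differed by 1.09 log2 units between them, against 0.58 to 0.70 in slices 2 to 4. Slice 1 of root A is the library of low complexity among the 8, and the numbers of genes called were recomputed without it. Slice 8 of root A, with 8262 genes at the common depth, was the only library of the 32 with fewer.

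**Figure D1:**
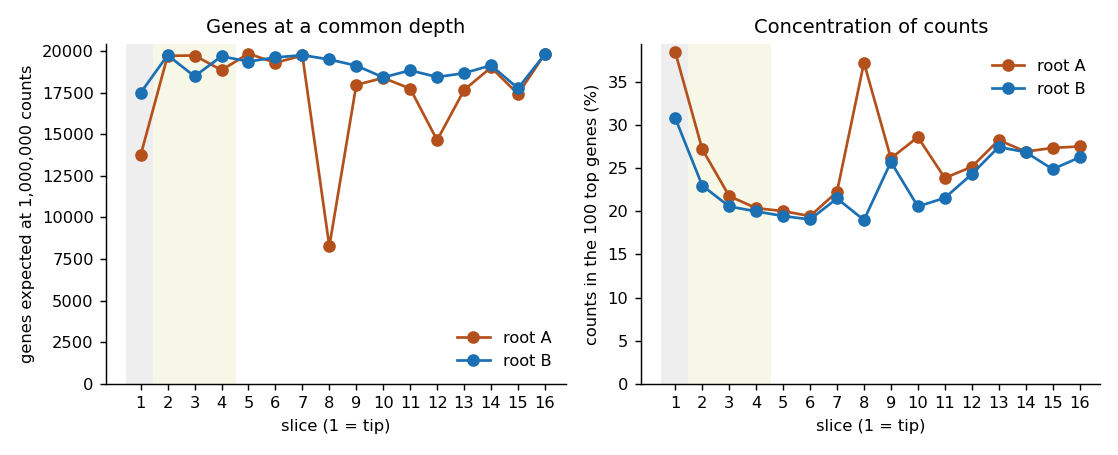
Genes expected at 1000000 counts (left) and share of counts in the 100 genes with the most counts (right), for every slice from the tip (1) to the back (16); each point is 1 library and lines join the slices of a root. Slice 1 of root A, at 13740 genes and 38.4% of counts, stands apart from slices 2 to 4 (shaded yellow) more than slice 1 of root B does.

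The tip differed from the tissue just behind it in the proportions of many transcripts. Of 19587 genes tested, 2955 were higher in slice 1 than in slices 2 to 4 (15.1% of those tested) and 2446 were lower (12.5%), at an adjusted p under 0.05 (edgeR's quasi-likelihood test, Benjamini-Hochberg), or 27.6% in all. The genes called higher held 57.2% of all counts in slice 1 of root A and 48.0% in root B. Giving root A first, their share dropped to 19.0% and 19.7% in slice 2, then 11.5% and 9.14% in slice 3, reaching 8.78% and 8.83% by slice 4. The opposite course was taken by the genes called lower, with 4.61% and 5.98% of the counts at the tip, 28.0% and 26.7% in the next slice, then 37.0% and 39.99%, ending at 38.6% and 38.4%. These shares describe genes chosen on the same libraries and carry no test. They move with the genes called. Averaged over libraries, the genes called higher held 12.8% of the counts of slices 2 to 4, and those called without slice 1 of root A held 6.93%. For genes called lower, the mean share of slices 2 to 4 went from 34.8% to 22.8%, and that of slice 1 from 5.29% to 2.95%, or 2.30% without slice 1 of root B. In slices 5 to 16, the genes called higher held 9.70% to 24.0% of the counts and those called lower 15.3% to 37.7%. Those slices were outside the comparison, but the filter, the scaling and the spread of the fit used them.

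**Figure D2:**
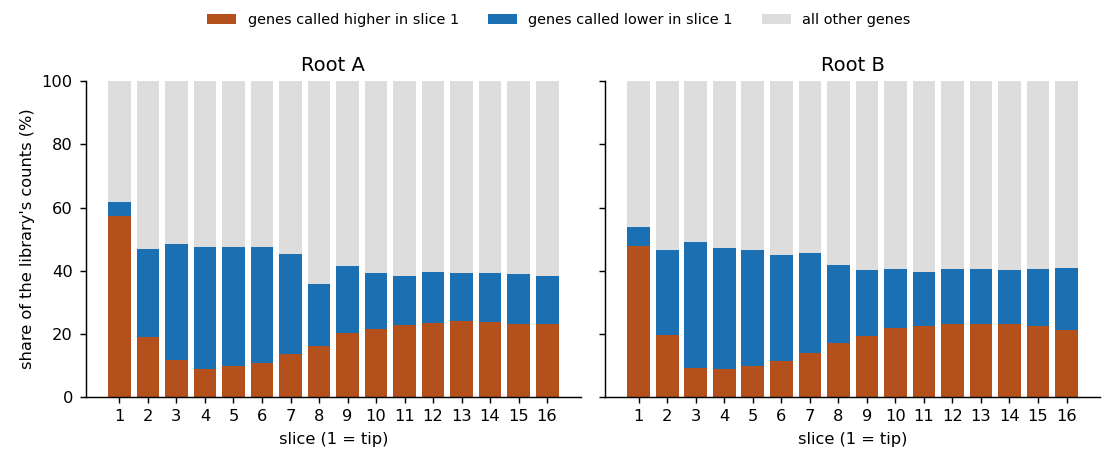
Share of each library's counts (%) in genes called higher in slice 1, in genes called lower there and in all other genes, stacked to 100% for each slice of root A (left) and root B (right). The higher genes take 57.2% and 48.0% in slice 1 and under 9% in slice 4; the share in slices 5 to 16 reaches 24.0%.

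The balance of directions was not settled. DESeq2 gave 2755 genes higher and 3218 lower, and a fit of the 8 libraries alone gave 2546 higher and 2704 lower. Leaving slice 8 of root A out raised the numbers in both directions, and the fits that follow keep it. When slice 1 of root A was left out, more genes were called in each direction if slice 8 of root A was left out too. The losses of called genes without slice 1 of root A, here and below, therefore hold with slice 8 of root A kept. They were smaller with both left out. Without slice 1 of root A, 1697 genes were higher and 971 lower. Without slice 1 of root B, 2503 were higher and 1608 lower, so removing either library lowered the count, and root A's more so. Of the 2955 genes called higher, 1454 were still called in the same direction without slice 1 of root A, and of the 2446 called lower, 899 were.

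Each root was then taken alone, as slice 1 minus the mean of slices 2 to 4 in log2 CPM (counts scaled to a library of 1000000). Over all genes tested, root A had a median change of −0.64 and root B one of −0.09. With a smaller prior count of 0.5 these medians were −0.77 and −0.06. CPM are relative to each library's total, so the medians give no change in the amount of RNA. For genes called higher the medians were 2.54 (root A) and 2.07 (root B). Genes called lower had medians of −3.64 and −2.85, and the root A value became −4.84 with a smaller prior count of 0.5, since many of these genes had no count there. The change had the same sign in both roots for 2641 of the 2955 genes called higher. For 164 it was positive in root A alone and for 150 in root B alone. All 2446 genes called lower were lower in each root. Across the 19587 genes, the changes in the roots correlated with a Pearson's r of 0.58, a description of likeness over genes that share their libraries.

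**Figure D3:**
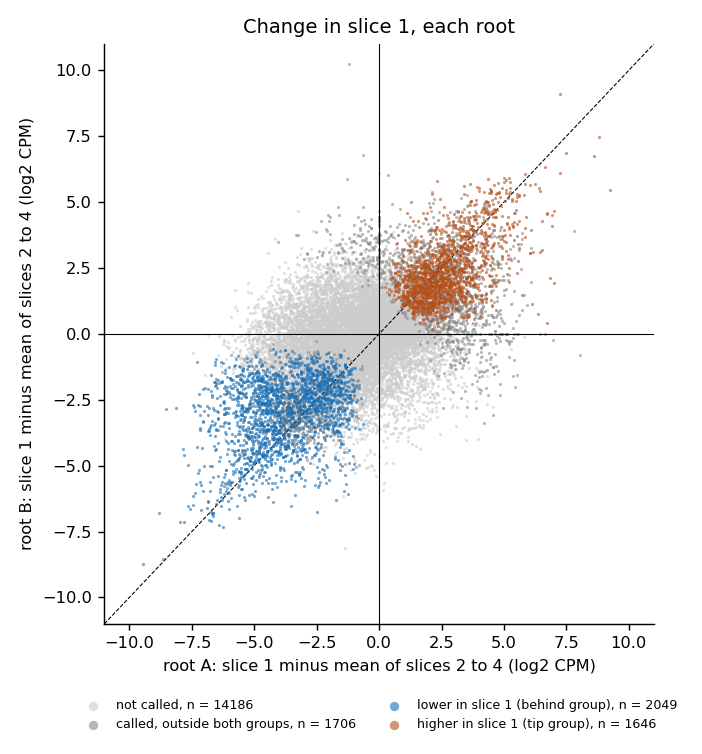
Change in slice 1 in root A (x axis) against root B (y axis), each as slice 1 minus the mean of slices 2 to 4 in log2 CPM; each point is a gene, and the dashed line marks equal change. The 1646 genes of the tip group and the 2049 of the behind group, by their definition, lie in opposite corners. Over all genes the medians are −0.64 (root A) and −0.09 (root B).

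The difference between the roots was tested directly as an interaction in the 8 libraries. None of 15045 genes was called (0%; edgeR, adjusted p under 0.05), the lowest adjusted p was 0.0632, and 2797 genes (18.6%) had an unadjusted p under 0.05. Of those, 1937 changed more positively in root B and 860 in root A. With genes averaging under 10 CPM left out, however, 290 were called, and in 235 of them root B had the more positive change. Dropping the slice 2 library of root B gave 227. Slice 1 has 1 library per root in this test, and its spread is taken from slices 2 to 4 of each root. That spread includes the change along the root between those slices, so it is not the spread between roots. A lack of called genes therefore does not show that the roots were alike.

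Stricter groups were formed for the description of what marks the tip and what is missing from it. A gene of either group was called, changed at least 2-fold, averaged 10 CPM or more across the 8 libraries, and had both slice 1 libraries on the same side of all 6 libraries behind. The tip group held 1646 genes (8.4% of those tested) and the behind group, lower in slice 1, 2049 (10.5%). Among the genes called, 1979 of 2955 that were higher and 2366 of 2446 that were lower had no overlap between slice 1 and slices 2 to 4, against 13.1% and 21.3% of all genes tested. The tip group held 1144 genes without slice 1 of root A, and the behind group 968.

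The rule for the tip group fixes a fall behind slice 1, so its levels there are a description. In slice 2 the median gene kept 22.9% (root A) and 30.3% (root B) of its slice 1 level. It then stood at 17.6% and 18.1% in slice 3 and at 13.3% and 20.4% in slice 4. A fall at each of the steps from slice 1 to slice 4 was seen for 684 genes in root A, 436 in root B and 287 in both. An increase of at least 8-fold in each root alone was found for 290 genes of the tip group.

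The genes with the most counts in the tip were largely of this group. Among the 100 with the most counts, slice 1 of root A and slice 1 of root B shared 63, of which 52 belonged to the tip group and none was called lower. In slice 4 the roots shared 78 of their first 100, of which 1 belonged to the tip group and 62 were called lower. The groups were chosen on these same libraries, so the counts are a description. Of all genes tested, 8.4% were in the tip group and 12.5% were called lower. These ranks are by counts without length correction, so long transcripts rank higher.

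Levels in slices 5 to 16 split the tip group. This description leaves out the slice 8 library of root A, with which the 127 genes below would be 122. For 127 genes (7.72%), every later library stayed below 10% of the slice 1 level of its root. For 458 genes (27.8%), the slice 1 level was reached again in a later slice of each root, and with slice 8 of root A kept the number was 481. A further 398 reached it in 1 root only, and 663 stayed below it in both roots without staying below 10%.

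The 127 genes that stayed low made up a large share of the tip's counts. At the tip they accounted for 18.5% of root A's counts and 16.3% of root B's. In the next slice the values were 4.47% and 4.17%, followed by 1.72% and 0.715% for slice 3 and 0.354% and 0.197% for slice 4. From slice 9 to slice 16 all libraries lay between 0.0454% and 0.0726%. The choice of these genes fixes a high slice 1 and low later levels in both roots, so their shares are a description. From slice 1 to slice 4 the share fell at each step in both roots. Of the 63 genes shared by the first 100 of both slice 1 libraries, 30 were among these 127.

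The 458 genes that came back held 6.96% and 7.16% of the counts in slice 1 and 2.21% to 3.26% in slices 2 to 4. Their share rose to 7.60% to 11.1% in slices 9 to 12 and was 9.31% to 11.0% in slices 13 to 16. Their highest later slice lay in slices 9 to 12 for 239 genes and in slices 13 to 16 for 219 in root A, and for 240 and 212 in root B. The choice of these genes fixes that they reach the slice 1 level later, so their later shares are a description. It also sets the highest of several later libraries against 1 slice 1 library, which favours a return. By this rule the genes marked the tip against the tissue just behind it, without being limited to the tip along the root.

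**Figure D4:**
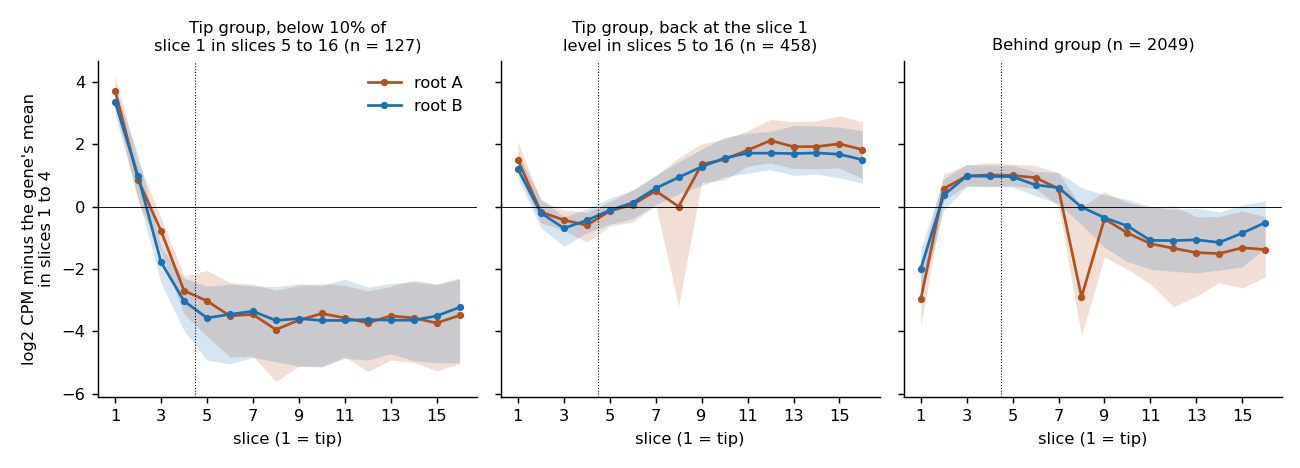
Median log2 CPM of 3 gene groups in every slice, relative to each gene's mean in slices 1 to 4; lines are roots, bands run from the first to the third quartile over genes, and the dotted line ends the slices used to choose the genes. The 127 genes fall from 3.72 and 3.35 in slice 1 to about −3.5 at the back, the 458 dip in slices 2 to 4 and rise again, and the 2049 of the behind group are lowest in slice 1 and in the slice 8 library of root A.

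A comparison outside the 8 libraries, slices 13 to 16 against slices 5 to 7, was added after the data were seen. It came from the same fit of all 32 libraries, so its scaling and spread also used the 8. In it 779 genes of the tip group rose towards the back and 98 fell, with a median change of 0.85 log2 units, while over all genes tested 26% rose and 27.4% fell, with a median of −0.11 (edgeR, adjusted p under 0.05). Of the behind group, 146 rose and 1595 fell, with a median of −1.92. Slices 5 to 7 adjoin the slices on which the groups were chosen and lie near them in level, so the groups were not drawn independently of this comparison's starting point.

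The rule for the behind group fixes a low slice 1, so its levels there are a description. A rise at each of the steps from slice 1 to slice 4 was seen for 739 genes in root A, 656 in root B and 305 in both (14.9%). Slice 1 stood at a median of 2.96% of the gene's highest level in slices 2 to 4 in root A and 9.08% in root B. Slice 2 stood at 64.2% and 54.8%, slice 3 at 89.2% and 93.9% and slice 4 at 94.8% and 91.3%. The highest of the slices was slice 2 for 413 genes in root A and 408 in root B, slice 3 for 735 and 851, and slice 4 for 901 and 790. Of the behind group, 325 genes had no count in either library of slice 1. With genes at 0 set to 3 counts over slice 1, the median change of the genes called lower was −3.04, against −3.41 as fitted, and 1268 of them were at least 8-fold lower.

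Genes missing from the tip were counted on presence alone. Of 7138 genes with at least 10 CPM in every library of slices 2 to 4, 155 (2.17%) had no count in either library of slice 1. A count of 0 in the 2192038 counts of slice 1 allows up to 1.39 CPM after scaling, taking 3 counts as the limit, which covers counting error only. Slice 1 of root A alone listed 798 of the 7138 genes at 0 and slice 1 of root B 228. The 155 are 19.4% of the first number and 68.0% of the second. Of the 643 genes at 0 in root A alone, 300 had at least 10 CPM in slice 1 of root B, with 142 CPM as the highest value. Absence from slice 1 of root A by itself therefore did not carry over to root B for most genes. The same count was made for slices 2, 3 and 4 against the other slices of 2 to 5, and 0 genes were missing from both of their libraries.

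Of the other direction, 3 genes had at least 10 CPM in both libraries of slice 1 and no count in slices 2 to 4, out of 7055 with that level in slice 1. They had 10.5 to 37.9 CPM in slice 1. All of them had counts again farther back, in 14 to 18 of the 24 libraries of slices 5 to 16. This count rests on 6 libraries at 0 and that of 155 on 2, so the numbers are not a like comparison. With only slice 1 of root B in use the 3 genes became 24, with only that of root A 41. Leaving out either library of slice 2 gave 6.

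The 155 missing genes stayed at similar levels from slice 2 to slice 7 and fell behind it. Their median was 29.0 and 26.7 CPM in slice 2, 40.2 and 36.6 CPM in slice 4, and 33.2 and 31.8 CPM in slice 7, in roots A and B. It was 8.67 and 7.23 CPM in slice 9 and 2.01 and 3.39 CPM in slice 16. From slices 5 to 7 to slices 13 to 16, 115 of the 155 fell and 17 rose, at the same test and background as above. In each of the 8 libraries of slices 13 to 16, 35 of the 155 had at least 10 CPM and 28 were below 1 CPM.

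Zm00001d051206 had the highest log2 change of the tip group. Its tip level was 135 CPM for root A and 925 CPM for root B. In slices 2 and 3 it stood at 1.37 and 1.43 CPM in root B and at 0 in root A, and in slice 4 at 0 in both. Slice 1 held 1268 counts and slices 2 to 4 held 4. The roots thus differed widely in slice 1, but both lay above all 6 libraries behind. The log2 change was 10.69 ± 0.88 (SE, edgeR, adjusted p = 1.10e-09). Each root alone, with a prior count of 2, gave 7.24 (root A) and 9.10 (root B). The fitted size rests in part on libraries at 0. In slices 5 to 16 no library exceeded 0.678 CPM.

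Zm00001d027864 had tip levels of 404 CPM (root A) and 324 CPM (root B), averaging 364 ± 56.2 CPM (SD, n = 2). Slice 2 of root B had 6.85 CPM, and the other 5 libraries of slices 2 to 4 had none, as had all 24 libraries of slices 5 to 16. The log2 change was 10.66 ± 0.90 (SE, edgeR, adjusted p = 6.06e-08). Each root alone, with a prior count of 2, gave 8.81 (root A) and 7.46 (root B). The fitted change was 12.70 without slice 2 of root B. Its size thus rests on libraries at 0 and is not well determined. DESeq2 did not call this gene (adjusted p = 0.255), and over the alternatives run the adjusted p ranged from 9.75e-29 to that value.

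Zm00001d032822 had the lowest log2 change of the behind group, with no count in either library of slice 1. It stood at 559 and 326 CPM in slice 2, 748 and 503 CPM in slice 3 and 610 and 337 CPM in slice 4, in roots A and B. Root A was higher in each of these slices. Slices 2 to 4 held 4499 counts, and the gene was called lower in slice 1 (edgeR, adjusted p = 2.49e-07). Its mean of 514 CPM was 370-fold above a floor of 3 counts over slice 1. That floor covers counting error only, so the fold is not a firm lower bound. Among genes at 0 in the slice 1 library of 1 root alone, levels in the other reached 142 CPM (root B) and 210 CPM (root A). It was at 707 and 373 CPM in slice 5 and fell to 58.6 and 10.7 CPM in slice 10.

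Zm00001d032821, with the neighbouring identifier number, also had no count in slice 1. It rose later than the former, from 128 and 126 CPM in slice 2 to 777 and 684 CPM in slice 3, and stood at 466 and 450 CPM in slice 4. The roots lay closer together than for the former in each of these slices. It was also called lower in slice 1 (edgeR, adjusted p = 1.11e-08). Its mean of 438 CPM, from 3979 counts in slices 2 to 4, was 316-fold above the same floor, with the same limit. In slice 16 it had 2.01 and 2.47 CPM. The files do not say whether near-identical copies share reads with any of these genes.

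**Figure D5:**
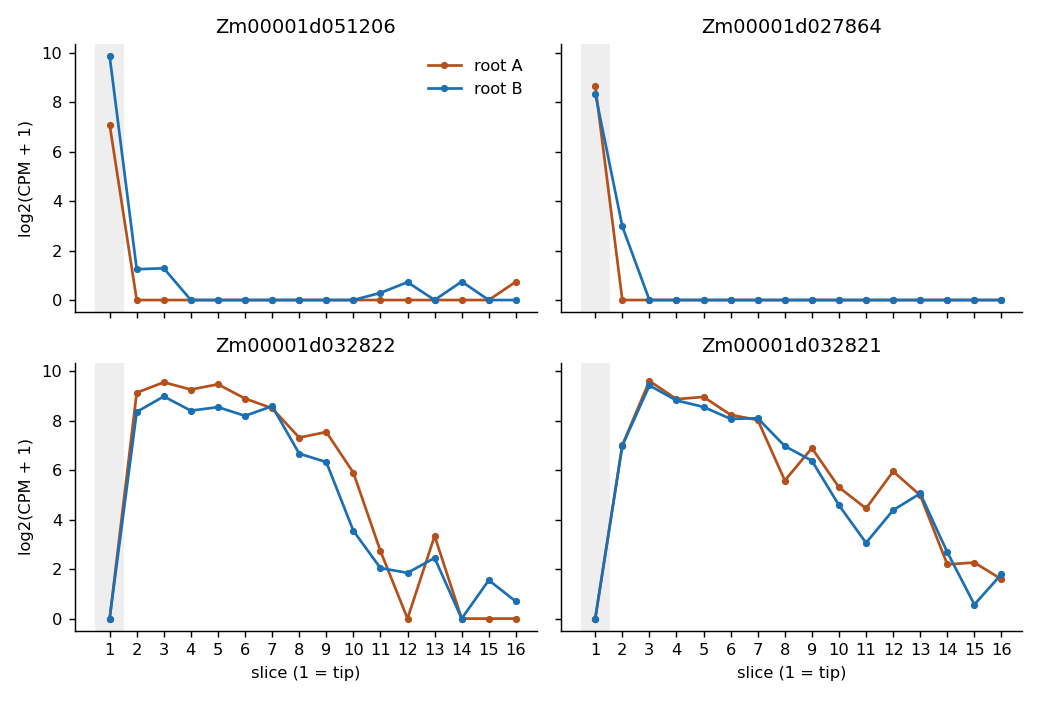
Levels of 4 genes, as log2(CPM + 1), in every slice of root A and root B; each point is 1 library and slice 1 is shaded. The upper pair reaches 135 to 925 CPM in slice 1 and 6.85 CPM or less elsewhere, and the lower pair has no count in slice 1 and 126 to 777 CPM in slices 2 to 4.

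Each slice behind the tip was also set against slice 1 on its own, in comparisons that share the slice 1 libraries. Against slice 2, 968 genes were higher in slice 1 (4.94% of those tested) and 1426 lower (7.28%). Against slice 3, 2049 were higher (10.5%) and 2111 lower (10.8%). Against slice 4, 2192 were higher (11.2%) and 2300 lower (11.7%). Of all genes tested, 12.2%, 21.2% and 22.9% were thus called. The median change of the genes called higher was 2.68 log2 units against slice 2, 3.22 against slice 3 and 3.44 against slice 4. Dropping the root A library of slice 1 left 622 genes called against slice 2 (280 higher and 342 lower), 2054 against slice 3 (1173 and 881) and 2349 against slice 4 (1341 and 1008). Dropping a library of the slice compared, root A's or root B's, left 855 or 716 against slice 2, 2391 or 1760 against slice 3, and 2390 or 2575 against slice 4.

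A minority of 174 identifiers belong to the GRMZM5G series, beside 39336 of the Zm00001d series. Of 140 tested, 60 (42.9%) were lower in slice 1, none was higher and the rest were not called, against 12.5% lower and 15.1% higher of all genes tested. Their median change was −2.49 log2 units, against −0.17 over all genes tested. Together they held 0.609% and 1.16% of the counts in slice 1 and 1.54% to 3.97% in slices 2 to 4, with no overlap. In the slice 8 library of root A, which also had few genes, their share was 14.4%, and the part of library quality in these values was not tested. Some pairs of these identifiers had identical changes in each root and the same adjusted p, and each identifier was counted on its own. What these identifiers stand for is not given in the files.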

How the data were processed

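Per the labels' protocols, extraction used Qiagen's RNeasy Micro and library preparation the Ovation RNA-Seq System V2, which amplifies cDNA; no molecular identifiers are mentioned, so reads are not independent molecules. The authors deposited whole-number counts per gene identifier for 32 libraries. Trimmomatic, kallisto 0.43 and DESeq2 are named in the submitters' processing notes without roles; the sources used here give no build, annotation, strand or rounding. If kallisto made the counts, reads of near-identical genes were divided by estimation.

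Columns were matched to samples by label, with 0 columns unmatched. The test was edgeR's (4.0.16, R 4.3.3), fitted to all 32 libraries with slices as 16 groups: TMM scaling, filterByExpr (minimum count 10, total 15; 19587 genes kept), robust quasi-likelihood fit with the newer dispersion step, no block, and Benjamini-Hochberg adjustment over all genes tested. The interaction of root and tip used the 8 libraries of slices 1 to 4. SE is the log2 change over the square root of F. CPM are TMM-scaled counts for a library of 1000000, and log2 CPM used a prior count of 2. Alternatives were DESeq2 1.42.0, RLE scaling, other filters, the older dispersion step, 8 libraries, thinning to 1008082 counts, a root block and libraries left out. The steps were tested on simulated data.

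The labels' root letters pair the samples, each letter being 1 root; deviations from the slice means correlated at 0.12 to 0.241 over the 6 pairs of slices 1 to 4. No 2 libraries of a slice among slices 1 to 4 agreed within sampling noise (chi-square per degree of freedom 8.12 to 28.2).

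The groups, lists and tests were chosen with earlier results of these data known. The rule for named genes started from the called genes with 2-fold or larger changes, 10 CPM or more on average in slices 1 to 4 and no overlap, and took the 2 highest and 2 lowest log2 changes because the identifiers have no names. Its other parts, the gene lists and the cell type markers need names or would print more identifiers, and were not used.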

Additional observations from a re-analysis of the deposited data

Results flagged for a closer look

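Among 14 sets of values over the 6 libraries of slices 2 to 4, 1 had a library far from the others: Zm00001d027864 stood at 6.85 CPM in slice 2 of root B and at 0 in the other 5. For normally distributed values chance gives such a library in about 1 of 20 sets, a rate that does not hold here. With 5 libraries at 0, any count in the remaining library would be flagged. No cause was tested.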

How the results depend on the processing

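Leaving out 1 of the 8 libraries moved the number of genes called to between 2668 and 5088 against slices 2 to 4, 622 and 2101 against slice 2, 1760 and 3978 against slice 3, and 2349 and 4364 against slice 4. The behind group then held 968 to 1949 genes, the genes missing from slice 1 numbered 159 to 798 (the highest without slice 1 of root B), and 69 to 183 genes of the tip group fell towards the back (183 without slice 1 of root B). The root by tip difference ran from 0 to 227 genes with 1 library of slices 2 to 4 left out, and was 12 with no filter on low counts and 290 at a mean of at least 10 CPM. With slice 8 of root A out of the fit, 158 genes of the tip group fell towards the back. The missing genes numbered 305 at 5 CPM and 63 at 20 CPM asked of slices 2 to 4. Where slice 1 keeps 1 library, it is assumed to vary like the other slices. The fits without slice 1 of root A kept slice 8 of root A, and fewer calls were lost with both left out. With the root as a replicate block, 5802 genes were called against slices 2 to 4, and the block moved no count by over 1.5 times. Counts and shares were compared under 216 alternatives without a single-library omission, and 202 kept their call or size; under 182 with one, 136 did. For the 4 named genes, direction was the same in all 72 alternatives and the call in 71, the exception being Zm00001d027864 in DESeq2. The cause of these shifts was not tested. No count in either library of slice 1, at 2192038 counts together, still allows a level of up to 1.39 CPM by counting error alone. For a single slice 1 library the limit is 3.25 CPM in root A and 2.43 CPM in root B.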
